A study of Homo sapiens with 6 samples.

Results

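The C/EBP family of transcription factors was measured in HL-60, an established human line from acute myeloid leukaemia, after long culture with a plant extract or its solvent. The members were all rows whose gene symbol is CEBPA, CEBPB, CEBPD, CEBPE or CEBPG, which are 5 of 43424 symbols in the files. All 5 had counts, and all 5 passed the low-count filter that kept 12844 genes for testing. One group, labelled CIP, had been exposed for 6 months to Corydalis incisa (Thunb.) Pers. at concentrations raised from 2 to 20 µg/ml, and the series calls these cells resistant. The other group, labelled DMSO, had been exposed to DMSO over the same 6 months. Both groups carry the genotype label WT and the same line name, and there were 3 libraries per group. The stated purpose was to find genes involved in the differentiation that CIP induces. The labels do not say whether CIP was still present at harvest, whether the resistant cells are 1 clone or whether replicates were separate cultures. The p-values therefore cover only the spread among these 6 libraries, which may be technical. RNA was read with QuantSeq, which yields about 1 read per polyadenylated transcript end, so CPM values (counts scaled to a common library total with TMM factors) are not divided by gene length.

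C/EBP proteins are basic leucine zipper (bZIP) factors, which bind DNA as homodimers or as heterodimers with each other and with some other bZIP proteins. C/EBP alpha is needed in mice for the step into granulocyte-monocyte progenitors, and C/EBP epsilon is needed for late neutrophil and eosinophil granule proteins. C/EBP beta and C/EBP delta act in inflammatory gene expression and in emergency granulocyte formation, while C/EBP gamma lacks a strong activation domain, can dampen the other members and pairs with ATF4 in amino acid stress.

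Stretches upstream of the RefSeq transcript starts (GRCh38.p14) show how the start regions of the members that rose, fell or did not pass differ in sequence. RefSeq promoter windows were searched for 4 of the 5 genes and not for CEBPD, which also rose. The capitals mark the motif named for each stretch, all letters run 5′ to 3′ on the strand of the gene, and only the 250 bases before each start were searched, on both strands. The CEBPA window (chr19:33302535-33302784, minus strand) is shown whole because it combines the highest GC content of the windows with a TATA box:
CEBPA: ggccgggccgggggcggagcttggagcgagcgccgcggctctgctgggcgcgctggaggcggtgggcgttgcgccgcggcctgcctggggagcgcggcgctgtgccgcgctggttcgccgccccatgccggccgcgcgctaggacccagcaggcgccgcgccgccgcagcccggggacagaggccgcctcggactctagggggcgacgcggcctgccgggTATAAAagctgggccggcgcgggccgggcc
CEBPB TATA box (chr20:50190789-50190818, plus strand): acgggccgccctTATAAAtaaccgggctca
CEBPE AP-1 motif (chr14:23119338-23119367, minus strand): cctgcccctcccTGAGTCAccccaagggga
CEBPE PU.1 core (chr14:23119279-23119308, minus strand): gcattgactacaGAGGAAggaaaaggaagc
CEBPG composite of C/EBP and ATF letters (chr19:33374060-33374089, plus strand): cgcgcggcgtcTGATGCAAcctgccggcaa

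GC content was 81.2% in the CEBPA window, 75.6% and 77.6% in the CEBPB windows, 76.0% and 79.2% in the CEBPG windows and 57.2% in the CEBPE window, beside a median of 58.0% over 35116 promoter windows. TATAAA was found 30 bases before the CEBPA start and 29 bases before a CEBPB start, and 10.7% of all windows hold it. Of the 4 searched genes, CEBPE alone held GAGGAA, the core bound by PU.1, which occurs in 23.6% of windows, and TGAGTCA, the AP-1 motif, which occurs in 4.20%. CEBPG alone held TGATGCAA, which occurs in 0.772% of windows. CCAAT was present once in a CEBPB window and, read as ATTGG, at 2 places in a CEBPG window, with a share of 32.0% of all windows. The C/EBP palindrome TTGCGCAA (0.131% of windows), the cyclic AMP response element TGACGTCA (1.65%) and the RUNX core TGTGGT (10.98%) had no match in these windows. None of the matches overlapped another, and GENCODE release 29 places some starts of these genes further upstream than RefSeq does. A match is a description of letters and not a bound site.

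Total counts were 9314584 to 10868396 in the CIP libraries and 8143657 to 9759687 in the DMSO libraries. Markers of the line were read before the members. MPO, the myeloperoxidase of primary granules that HL-60 cells are known for, had 77887 to 84917 counts in CIP libraries and 9 to 15 in DMSO libraries. MYC, known to be amplified in HL-60, averaged 279.8 ± 52.3 CPM in CIP libraries and 41.7 ± 3.89 CPM in DMSO libraries (SD, n = 3 each). The DMSO libraries therefore go against the known features of the line at both genes, and since this holds for every DMSO library no comparison could be made without them. Groups are named by their labels, and the part of a difference in cell identity in the results below was not tested. Of the other HL-60 markers listed, CD33, AZU1, ELANE and NRAS had reads in every library, and so did CDKN2A, at 28.4 ± 2.37 CPM in CIP libraries and 111.1 ± 16.1 CPM in DMSO libraries.

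CEBPA, CEBPD and CEBPE were higher in the CIP libraries, CEBPB was lower and CEBPG did not pass the test. CEBPD overlapped CEBPG in level in CIP libraries and was near 0 in DMSO libraries, while CEBPB was the lowest of the 5 in CIP libraries and the second highest in DMSO libraries. The background is high: edgeR called 73.1% of the 12844 tested genes (adjusted p under 0.05), 34.9% as higher and 38.2% as lower in CIP libraries. In 75.4% of tested genes the groups did not overlap, with CIP above DMSO in 36.1% and below it in 39.3%. With 4 of 5 members called and 4 of 5 not overlapping, the family is near that background, and its counts of calls are not a result about the family. In bulk libraries, a different share of cells of one kind and a different amount of RNA per cell cannot be told apart.

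CEBPA (chromosome 19, 33299934 to 33302534, minus strand), the granulocyte-monocyte factor, had 3481, 4134 and 3593 counts in CIP libraries and 1374, 1378 and 1338 in DMSO libraries. Scaled, these were 402.0, 422.8 and 361.9 CPM in CIP libraries and 135.7, 131.8 and 150.9 CPM in DMSO libraries. Every CIP library lay above every DMSO library. CEBPA had a log2 fold change of 1.503 with an SE of 0.07 (edgeR, adjusted p = 2.0e-19), and it stood above 97.6% of tested genes in CIP libraries and above 91.6% in DMSO libraries. CEBPA-DT, a noncoding RNA that starts 287 bases from CEBPA on the other side of the start region, had 172, 170 and 212 counts in CIP libraries and 20, 27 and 20 in DMSO libraries. CEBPA-DT rose by 3.09 with an SE of 0.24 on the log2 scale (edgeR, adjusted p = 9.0e-14). CEBPA is a gene of 1 exon, so reads of its mRNA cannot be told from reads of unspliced RNA or DNA, and GENCODE places AC008738.3 and AC008738.5 over it on the opposite strand.

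CEBPE (chromosome 14, 23117306 to 23119255, minus strand), the late granulocyte factor, had 1493, 1548 and 1395 counts in CIP libraries and 103, 90 and 104 in DMSO libraries. That is 172.4, 158.3 and 140.5 CPM in CIP libraries and 10.2, 8.61 and 11.7 CPM in DMSO libraries. The groups did not overlap and were 15.4-fold apart in mean CPM, and the log2 difference was 3.95 with an SE of 0.11 (edgeR, adjusted p = 5.1e-26). CEBPE stood above 92.3% of tested genes in CIP libraries and above 37.3% in DMSO libraries.

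CEBPD (chromosome 8, 47736913 to 47738164, minus strand), an early inducible inflammatory factor, was close to silent in DMSO libraries. It had 445, 504 and 387 counts in CIP libraries and 0, 2 and 1 in DMSO libraries. On the CPM scale this was 51.4, 51.5 and 39.0 in CIP libraries and 0, 0.191 and 0.113 in DMSO libraries, with no overlap. The ratio of summed, scaled counts was 462.2, with an exact 95% interval of 157.8 to 2244 that covers counting error only, and edgeR's quasi-likelihood test gave an adjusted p of 9.7e-23. CEBPD passed the low-count filter through the CIP libraries alone, so a call as lower was not open to it in any setting with that filter. CEBPD is also a gene of 1 exon.

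CEBPB (chromosome 20, 50190583 to 50192690, plus strand), the macrophage and acute-phase factor, went the other way. It had 275, 310 and 334 counts in CIP libraries and 580, 655 and 561 in DMSO libraries, or 31.8, 31.7 and 33.6 CPM in CIP libraries and 57.3, 62.7 and 63.3 CPM in DMSO libraries. All CIP libraries lay below all DMSO libraries, and the log2 difference was -0.92 with an SE of 0.10 (edgeR, adjusted p = 9.2e-10). CEBPB did not pass edgeR's test against a 2-fold bound, an alternative added once the values were known (adjusted p = 1.00). CEBPA, CEBPD and CEBPE passed it as higher, as did 9.9% of all tested genes, while 18.8% passed it as lower and 28.7% in either direction. CEBPB also has 1 exon and overlaps the antisense gene CEBPB-AS1, which had 7 counts over the CIP libraries and 15 over the DMSO libraries and was not tested.

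CEBPG (chromosome 19, 33373709 to 33382686, plus strand), the ATF4 partner, had 392, 479 and 362 counts in CIP libraries and 414, 434 and 348 in DMSO libraries. These were 45.3, 49.0 and 36.5 CPM in CIP libraries and 40.9, 41.5 and 39.3 CPM in DMSO libraries, and the groups overlapped. The log2 difference was 0.10 with an SE of 0.11 (edgeR, adjusted p = 0.43) and a 95% interval of -0.13 to 0.33. The sign of CEBPG turned when libraries were scaled by their totals alone, at -0.13. CEBPG lies 71175 bases from CEBPA, with CEBPA-DT, RPS3AP50 and AKR1B1P7 annotated between them.

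**Figure D1:**
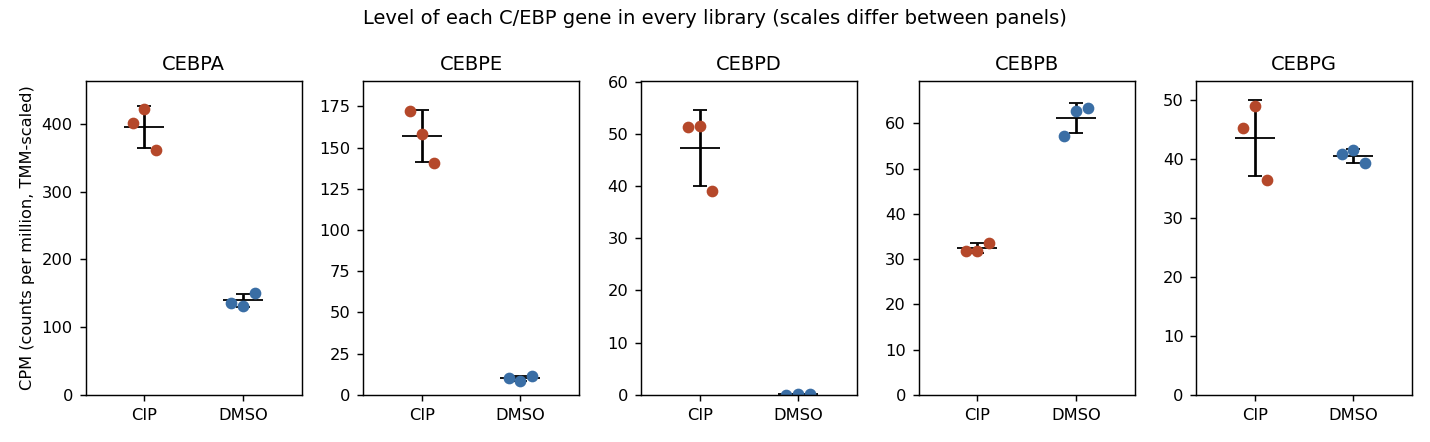
Level in CPM (TMM-scaled, linear axis from 0, scales differing between panels) of each C/EBP gene, with 1 point per library, a line at the group mean and bars of 1 SD (n = 3), CIP left and DMSO right. CEBPA, CEBPE and CEBPD lie higher in all CIP libraries, CEBPB lies lower in all of them, and the CEBPG points overlap.

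The makeup of the family differed below its leading member CEBPA. Summed over the 5 genes, the level was 702.8, 713.3 and 611.4 CPM in CIP libraries and 244.1, 244.8 and 265.3 CPM in DMSO libraries. CEBPA supplied the largest share of family counts in each library, 57.2% to 59.3% in CIP libraries and 53.8% to 56.9% in DMSO libraries. CEBPE made up 22.2% to 24.5% in CIP libraries and 3.52% to 4.42% in DMSO libraries, whereas CEBPB made up 4.44% to 5.50% in CIP libraries and 23.5% to 25.6% in DMSO libraries. The second-largest share was thus that of CEBPE in CIP libraries and that of CEBPB in DMSO libraries. CEBPB had the smallest share in CIP libraries, and CEBPE lay below CEBPG in DMSO libraries. The share of CEBPG was 5.96% to 6.87% in CIP libraries and 14.8% to 17.0% in DMSO libraries. CEBPD took 6.37% to 7.31% in CIP libraries, and in DMSO replicate 1 its 0 of 2471 family counts allow a share of up to 0.121% by the 3-count limit and 0.149% by the exact 2-sided 95% binomial interval. Single-library shares carry exact binomial 95% intervals, for example 23.5% to 25.6% for CEBPE in CIP replicate 1 and 3.41% to 5.03% in DMSO replicate 1.

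**Figure D2:**
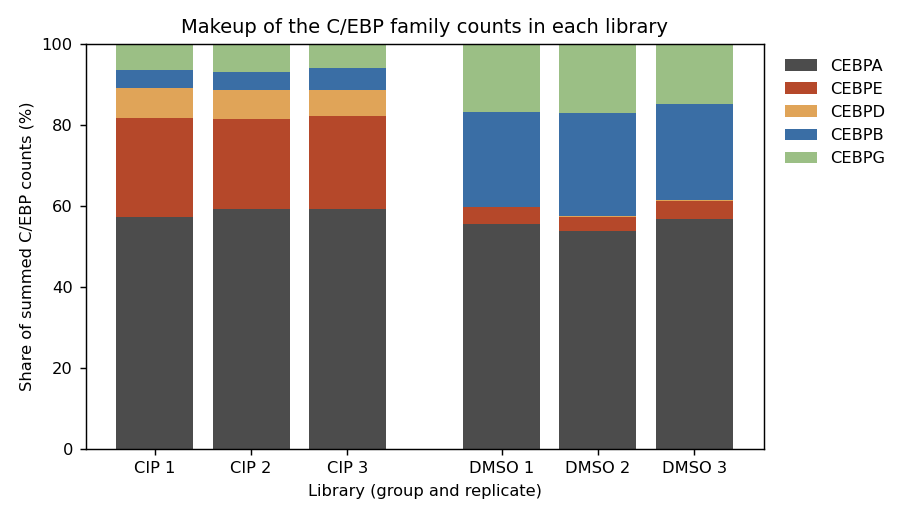
Stacked bars of the percent of summed C/EBP counts taken by each gene in each of the 6 libraries, CIP left and DMSO right. CEBPE takes 22.2% to 24.5% with the CIP label and 3.52% to 4.42% with the DMSO label, and CEBPB the reverse order of size.

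Ratios within a library do not depend on how libraries are scaled. The log2 ratio of CEBPE to CEBPA counts, with 1 count added to each, was -1.22, -1.42 and -1.36 in CIP libraries and -3.72, -3.92 and -3.67 in DMSO libraries, a difference of 2.44. CEBPE thus gained on CEBPA in the CIP libraries. The log2 ratio of CEBPB to CEBPA averaged -3.60 ± 0.16 in CIP libraries and -1.19 ± 0.10 in DMSO libraries, a difference of -2.42. That of CEBPG to CEBPA averaged -3.19 ± 0.11 in CIP libraries and -1.78 ± 0.14 in DMSO libraries, a difference of -1.41. That of CEBPD to CEBPA averaged -3.07 ± 0.13 in CIP libraries and -9.55 ± 0.80 in DMSO libraries, where 1 of the libraries had 0 counts (all SD, n = 3). Each of the 4 differences separated the groups completely and gave p = 0.10 in a 2-sided exact permutation test (adjusted p = 0.10 over the 4 ratios), the smallest that 3 against 3 libraries can give.

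By level, the order in CIP libraries was CEBPA, CEBPE, CEBPD, CEBPG and CEBPB. CEBPD (39.0 to 51.5 CPM) and CEBPG (36.5 to 49.0 CPM) overlapped there, and the other neighbours in that order did not. In DMSO libraries the order was CEBPA, CEBPB, CEBPG, CEBPE and CEBPD, and no neighbours overlapped. The fitted changes had SE values of 0.07 to 0.32 on the log2 scale, with CEBPD, which had 3 DMSO counts, the widest. CIP replicate 3 held the lowest value of its group for CEBPA, CEBPE, CEBPD and CEBPG and the highest for CEBPB.

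Genes related by name or by dimer formation were read next. DDIT3 (CHOP), a C/EBP-related stress factor that pairs with members, had 17.4, 14.9 and 20.6 CPM in CIP libraries and 18.9, 21.3 and 24.8 CPM in DMSO libraries. The groups overlapped (log2 difference -0.29, SE 0.16, edgeR, adjusted p = 0.098), although DDIT3 passed as lower with library totals alone (adjusted p = 0.0037), without CIP replicate 3 (0.031) and without DMSO replicate 1 (0.048). CEBPZ, which shares the name but is not a bZIP protein, averaged 164.7 ± 1.61 CPM in CIP libraries and 148.9 ± 10.4 CPM in DMSO libraries (edgeR adjusted p = 0.063). CEBPZ passed as higher without DMSO replicate 3 (adjusted p = 0.045), and its log2 fold change of 0.14 became -0.085 with library totals alone.

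Other bZIP genes were split in direction. Of 30 tested of 33 listed bZIP partners and relatives, 13 were higher, 8 lower and 9 not past the test in CIP libraries, with a median log2 fold change of 0.37 beside -0.03 over all tested genes. The shares to read these and the following list counts against are 34.9% higher and 38.2% lower over all tested genes, and 9.9% and 18.8% against the 2-fold bound. Against that bound, 5 of the bZIP genes were higher and 4 lower. ATF5, an ATF4-related factor, rose to 135.5 ± 4.96 CPM in CIP libraries, against 16.0 ± 1.44 CPM in DMSO libraries. MAFK, a small Maf protein, and NFE2, its erythroid and megakaryocyte partner, rose with log2 fold changes of 2.23 ± 0.08 and 2.27 ± 0.11 (SE), and JUND, an AP-1 subunit, with 1.83 ± 0.10. BATF3, a factor of dendritic cells, averaged 0.850 ± 0.125 CPM in CIP libraries and 20.9 ± 1.26 CPM in DMSO libraries, and BATF fell by 1.56 on the log2 scale. BATF3 passed the low-count filter through the DMSO libraries alone, so a call as higher was not open to it. ATF4, the partner of CEBPG, averaged 408.3 ± 40.6 CPM in CIP libraries and 398.8 ± 36.4 CPM in DMSO libraries and did not pass.

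Genes known to act on C/EBP genes, messages or proteins included several of the larger rises. Of 20 such genes, 12 were higher, 3 lower and 5 not past the test in CIP libraries (median log2 fold change 0.51). With library totals alone the number lower was 7, and against the 2-fold bound 6 were higher and 2 lower. TRIB1, a scaffold that leads C/EBP alpha to degradation by the COP1 ligase, had 197.7, 191 and 221.5 CPM in CIP libraries and 1.38, 0.765 and 1.69 CPM in DMSO libraries. TRIB1 lies on chromosome 8, as MYC does. TRIB1 and FLT3 (below) passed the low-count filter through the CIP libraries alone, so a call as lower was not open to them. TRIB2, which has the same known role, went the other way at 1.75 ± 1.25 CPM in CIP libraries and 7.35 ± 2.05 CPM in DMSO libraries, and COP1 did not pass (log2 fold change -0.06 ± 0.12, SE, edgeR adjusted p = 0.67). CELF1, which binds C/EBP messages and affects their translation, stood at 350.7 ± 21.8 CPM in CIP libraries and 86.9 ± 4.35 CPM in DMSO libraries. Calreticulin (CALR), which can also bind C/EBP messages, rose by 1.601 on the log2 scale, with an SE of 0.06. SPI1, which encodes PU.1, rose to 45.1 ± 1.55 CPM in CIP libraries, against 15.0 ± 2.49 CPM in DMSO libraries. RUNX1, a known activator of CEBPA transcription, had a log2 fold change of 1.26 ± 0.14 (SE), and FLT3, a receptor kinase whose active forms are known to inhibit C/EBP alpha by phosphorylation, was 33.5-fold higher in mean CPM.

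Known targets of the family did not move as one group. The lists were not split by whether a member raises or lowers a target, so a fall need not go against a rise of the member. Of 13 tested of 14 listed myeloid targets of C/EBP alpha, 3 were higher, 6 lower and 4 not past the test in CIP libraries, with a median log2 fold change of -0.10. Against the 2-fold bound 1 was higher and 2 were lower. MPO rose to 8672 ± 281.8 CPM in CIP libraries, against 1.12 ± 0.323 CPM in DMSO libraries. MPO passed the low-count filter through the CIP libraries alone, so a call as lower was not open to it. CTSG, the granule protease cathepsin G, had 99.7, 90.2 and 96.0 CPM in CIP libraries and 621.5, 675.3 and 662.6 CPM in DMSO libraries. PRTN3, proteinase 3, was 1.49-fold higher in mean CPM, while ELANE, neutrophil elastase, and AZU1, azurocidin, had log2 fold changes of -0.83 ± 0.07 and -0.80 ± 0.13 (SE). Lysozyme (LYZ) was 13.1-fold lower. CSF3R, the receptor of granulocyte colony-stimulating factor and a well-known C/EBP alpha target, averaged 36.7 ± 1.79 CPM in CIP libraries and 39.2 ± 1.98 CPM in DMSO libraries and did not pass (edgeR adjusted p = 0.44). The primary granule genes therefore split, with CTSG, ELANE and AZU1 falling and PRTN3 and MPO rising.

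Granule genes listed for C/EBP epsilon, whose own gene rose, were read in 2 classes. Of 13 neutrophil granule genes listed, 4 (MMP8, CEACAM8, OLFM4 and CRISP3) had no count in any library, and 5 were tested. Of these 5, 4 were lower, none higher and 1 not past the test in CIP libraries. CAMP, MMP9 and ITGAM, with 0, 1 and 14 counts over the CIP libraries, passed the low-count filter through the DMSO libraries alone. A call as higher was therefore not open to these genes. LTF, lactoferrin, the defining secondary granule protein, was at 0 counts in CIP libraries and had 1 count over the DMSO libraries. CAMP, the cathelicidin of secondary granules, had 0 counts in CIP libraries and was at least 18.0-fold lower there (3 counts over the group). MMP9 had 1 count over the CIP libraries and 241 over the DMSO libraries, a scaled ratio (DMSO over CIP) of 232.2 with an exact 95% interval of 41.3 to 9210. CHI3L1 averaged 11.8 ± 6.46 CPM in CIP libraries and 24.5 ± 5.91 CPM in DMSO libraries, with an edgeR adjusted p of 0.043 that was 0.065 after thinning to the smallest library, 0.16 without CIP replicate 1, 0.10 without DMSO replicate 2 and 0.58 against the 2-fold bound. Of 6 eosinophil granule genes, 5 were tested, and 3 rose and 2 fell. The 3 that rose passed the low-count filter through the CIP libraries alone, so a call as lower was not open to them. PRG2, major basic protein, rose to 6240 ± 192 CPM in CIP libraries, against 1.41 ± 0.995 CPM in DMSO libraries. EPX, eosinophil peroxidase, and CLC, the Charcot-Leyden crystal protein, had 0 counts in DMSO libraries and were at least 58.8-fold and 112.1-fold higher. The ribonucleases RNASE2 and RNASE3 were 4.37-fold and 25.2-fold lower, so the eosinophil list did not move in 1 direction.

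Inflammatory genes linked to C/EBP beta and C/EBP delta moved in both directions. Of 13 tested of 18 listed, 2 were higher, 8 lower and 3 not past the test in CIP libraries (median log2 fold change -0.83), and their summed level was 71.4 to 92.9 CPM in CIP libraries and 117.7 to 125.0 CPM in DMSO libraries. The number lower was 6 to 10 when 1 library was left out and 2 against the 2-fold bound, while the number higher stayed at 2. The cytokine genes IL1B and TNF rose, IL1B to 15.2 ± 1.28 CPM in CIP libraries against 1.99 ± 0.362 CPM in DMSO libraries, and TNF to 9.02 ± 0.402 CPM against 1.46 ± 0.667 CPM. The chemokine CCL2 fell by 1.59 and the mitochondrial dismutase SOD2 by 0.51 on the log2 scale. FCN1, ficolin of monocytes, had 2 counts over the CIP libraries and 768 over the DMSO libraries, a scaled ratio (DMSO over CIP) of 370 with an exact 95% interval of 102.1 to 3061. Among the 8 lower, genes such as FCN1, CCL3 and PTX3 passed the low-count filter through the DMSO libraries alone. A call as higher was therefore not open to them. PTGS2, cyclooxygenase 2, passed with an edgeR adjusted p of 0.038 but not without DMSO replicate 1 (0.67), without CIP replicate 1 (0.11) or without CIP replicate 2 (0.088). It also missed with DESeq2 (0.059), limma-voom (0.12), the replicate block (0.11) or the 2-fold bound (0.93), and its groups overlapped. Monocyte and macrophage markers were read beside this list. All 6 tested of 10 were lower, and their summed level was 19.1 to 27.5 CPM in CIP libraries and 254.3 to 272.7 CPM in DMSO libraries. Most of that sum was CTSB, a lysosomal protease that many cell types express, at 19.1 ± 3.18 CPM in CIP libraries and 211.4 ± 9.66 CPM in DMSO libraries. CD68, LGALS3 and ITGAX averaged 0.690, 0.304 and 0.481 CPM in CIP libraries and 17.0, 15.1 and 11.6 CPM in DMSO libraries. All tested markers except CTSB passed the low-count filter through the DMSO libraries alone, so a call as higher was not open to them. CD14 had 2 counts over the CIP libraries and 0 over the DMSO libraries while CD163 and FCGR3A were at 0 throughout. The part of these markers in the result was not tested.

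Most stress genes shared by ATF4 and C/EBP gamma fell, while CEBPG and ATF4 themselves did not pass. Of 13 tested of 16 listed, 10 were lower, 1 higher and 2 not past the test in CIP libraries (median log2 fold change -0.70), and 5 were lower against the 2-fold bound. SESN2, a stress-induced inhibitor of growth signalling, had 10.3, 10.5 and 9.16 CPM in CIP libraries and 66.8, 56.8 and 65.5 CPM in DMSO libraries. SLC7A11, the cystine transporter, fell by 2.00 on the log2 scale. CTH, a cysteine synthesis enzyme, fell by 1.67. PHGDH, the entry enzyme of serine synthesis, fell by 1.41, and the pseudokinase TRIB3 fell by 1.27. The exception was ATF5, given above with the bZIP genes. ASNS, asparagine synthetase, a well-known target, was at 0 counts in CIP libraries and below the filter in DMSO libraries.

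**Figure D3:**
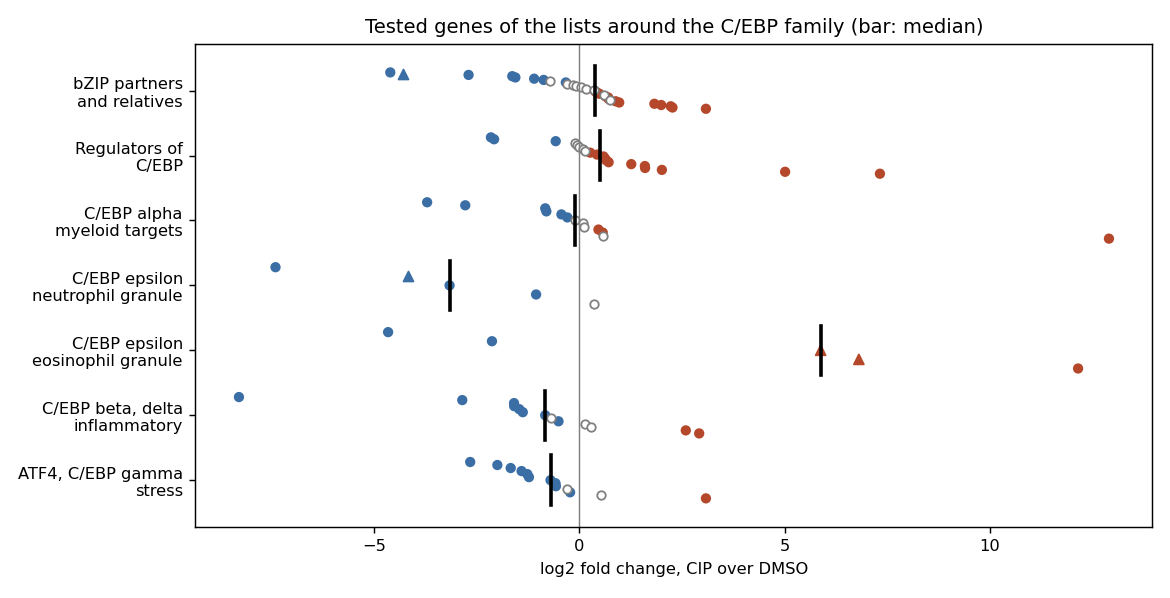
log2 fold change (CIP over DMSO, linear axis) of each tested gene in the 7 lists of partners, regulators and targets. Filled points passed the test (red higher, blue lower), open points did not, and triangles are bounds for genes with 0 counts in a group. The black bar is the list's median. It lies at 5.88 for eosinophil granule genes, which is the bound of EPX. For neutrophil granule genes it lies at -3.16, which is the value of ITGAM. Each of these lists had 5 tested genes.

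Markers of other cell types were read for the same libraries. The summed level of 9 lymphoid markers was 4.73 to 5.32 CPM in CIP libraries and 88.0 to 109.4 CPM in DMSO libraries, of which NKG7 gave most, and the T-cell genes CD3D and CD3E were at 0 in DMSO libraries. For 6 mast cell and basophil markers it was 44.8 to 46.2 CPM in CIP libraries and 104.1 to 118.7 CPM in DMSO libraries, made up mainly of KIT with the CIP label and TPSAB1 with the DMSO label. For 10 erythroid and megakaryocyte markers it was 58.7 to 66.4 CPM in CIP libraries and 164 to 172.7 CPM in DMSO libraries, mainly GYPC, with PF4 and GP9 at 0 in every library. ITGA2B, the platelet integrin subunit of that list, went the other way, with 30, 21 and 21 counts in CIP libraries and 0 in DMSO libraries, and was at least 24.9-fold higher. For 8 epithelial, fibroblast and endothelial markers it was 58.7 to 131.9 CPM in CIP libraries and 169 to 268.4 CPM in DMSO libraries. Of its 6 tested genes only PECAM1 passed, as lower, and most of the sum was FN1, which did not pass (edgeR adjusted p = 0.11) and had 42.6, 38.04 and 97.5 CPM in CIP libraries and 154.1, 102.2 and 105.3 CPM in DMSO libraries. The part of these markers in the C/EBP results was not tested.

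The nearest tested genes on the chromosome, 5 on each side, were set beside each member. They reach 293485 bases from CEBPE, 766128 to 977032 bases from CEBPA, CEBPB and CEBPG, and 4884294 bases from CEBPD. Over all tested genes, 34.9% were higher and 38.2% lower. Of the 10 nearest tested genes around CEBPE, 7 were higher, none lower and 3 not past the test. Their log2 fold changes were -0.51 to 2.74 beside 3.95 for CEBPE itself. C14orf119, 16850 bases away on one side, had a log2 fold change of 1.12 ± 0.10 (SE). SLC7A8, nearer at 6040 bases on the other side, had -0.51 ± 0.41 (SE) and did not pass (edgeR adjusted p = 0.26). Around CEBPD, 7 of 10 were lower, 2 higher and 1 not past the test, but only SPIDR, PRKDC, MCM4 and UBE2V2 lay within 259273 bases, and HGSNAT, FNTA, PCMTD1 and RB1CC1 were 4079411 bases or more away. PRKDC, the catalytic subunit of DNA-dependent protein kinase and the nearest tested gene on one side, averaged 132 ± 13.2 CPM in CIP libraries and 282.9 ± 17.8 CPM in DMSO libraries. SPIDR, 607 bases away on the other side, did not pass (edgeR adjusted p = 0.14), although it passed as lower with library totals alone (0.020) and without CIP replicate 2 (0.042) or DMSO replicate 2 (0.046). The 2 that were higher, LOC105375816 and LOC105375817, had 0 counts in DMSO libraries and were at least 177.1-fold and 54.7-fold higher. A call as lower was not open to them. CEBPD had a positive change, as these 2 loci did, while the other 8 genes had negative ones. Around CEBPA, 3 were higher, 3 lower and 4 not past the test, with CEBPA-DT and LRP3 (log2 fold change 0.93 ± 0.14, SE) higher on either side. Around CEBPB, 4 were higher, 3 lower and 3 not past the test, and both adjacent genes, PEDS1 and PTPN1, were lower by 0.41 and 0.26 on the log2 scale. Around CEBPG, 4 were higher (CEBPA and CEBPA-DT among them), 2 lower and 4 not past the test, and PEPD beside it fell by 0.93.

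**Figure D4:**
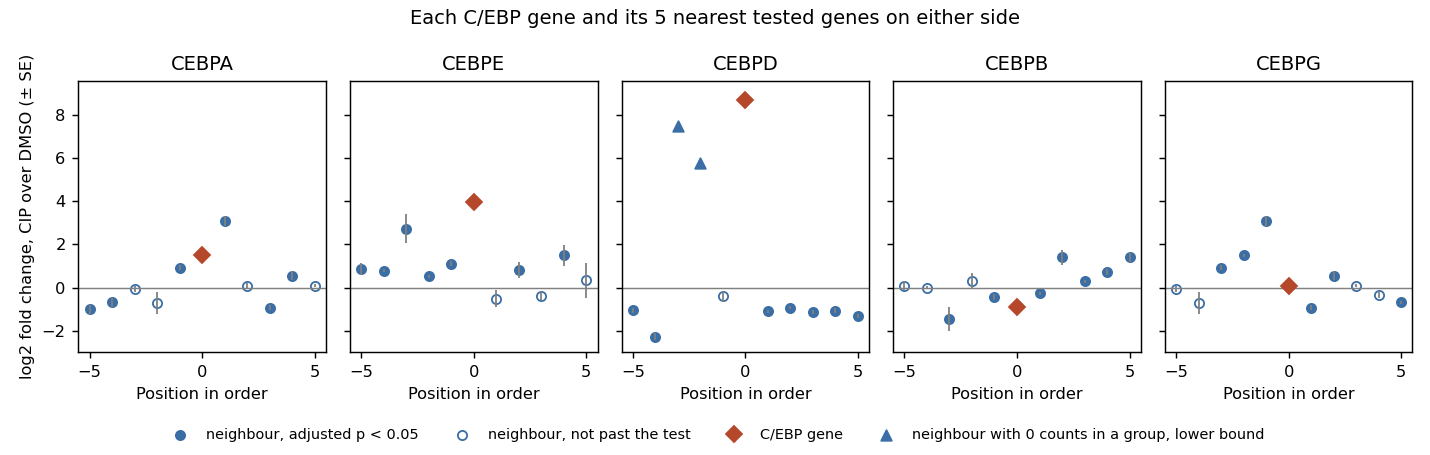
log2 fold change (CIP over DMSO, with SE bars) of each C/EBP gene, at 0 on the horizontal axis, and of the 5 nearest tested genes on each side in order of distance. Triangles are lower bounds for 2 loci with 0 counts in DMSO libraries. CEBPE lies above all 10 of its neighbours, and the other 8 neighbours of CEBPD, some of them far from it, lie below 0.

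The genes most like each member over the 6 libraries were found by the smallest Euclidean distance between row-centred log2 CPM values, as a description among 12843 other genes. Nearest to CEBPA were BZW1, PIAS2 and AEBP2 (distances 0.10 to 0.14), of which BZW1 averaged 66.0 ± 4.32 CPM in CIP libraries and 22.7 ± 1.19 CPM in DMSO libraries. Nearest to CEBPE were TFAP2A, at 8.36 to 10.97 CPM in CIP libraries and 0.287 to 0.564 CPM in DMSO libraries, and the loci LOC124903061 and LOC124903399 (distances 0.27 to 0.33). Nearest to CEBPD was LAPTM4B, at 39.7 ± 4.396 CPM in CIP libraries and 3 counts over the DMSO libraries, followed by LIN7A and CD59 (0.31 to 0.70). Nearest to CEBPB were ELOVL5, NUSAP1 and PCLAF (0.096 to 0.099). PCLAF, a replication-associated protein, averaged 417.6 ± 24.2 CPM in CIP libraries and 794.2 ± 52.6 CPM in DMSO libraries. Nearest to CEBPG were MRPS14, ACAT1 and RACGAP1 (0.078 to 0.12), none of which passed the test, although ACAT1 passed without CIP replicate 3 (adjusted p = 0.023). Between members, the closest pair was CEBPB and CEBPG at 1.29 and the widest CEBPB and CEBPD at 10.1, and no member was among the 3 nearest genes of another.

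**Figure D5:**
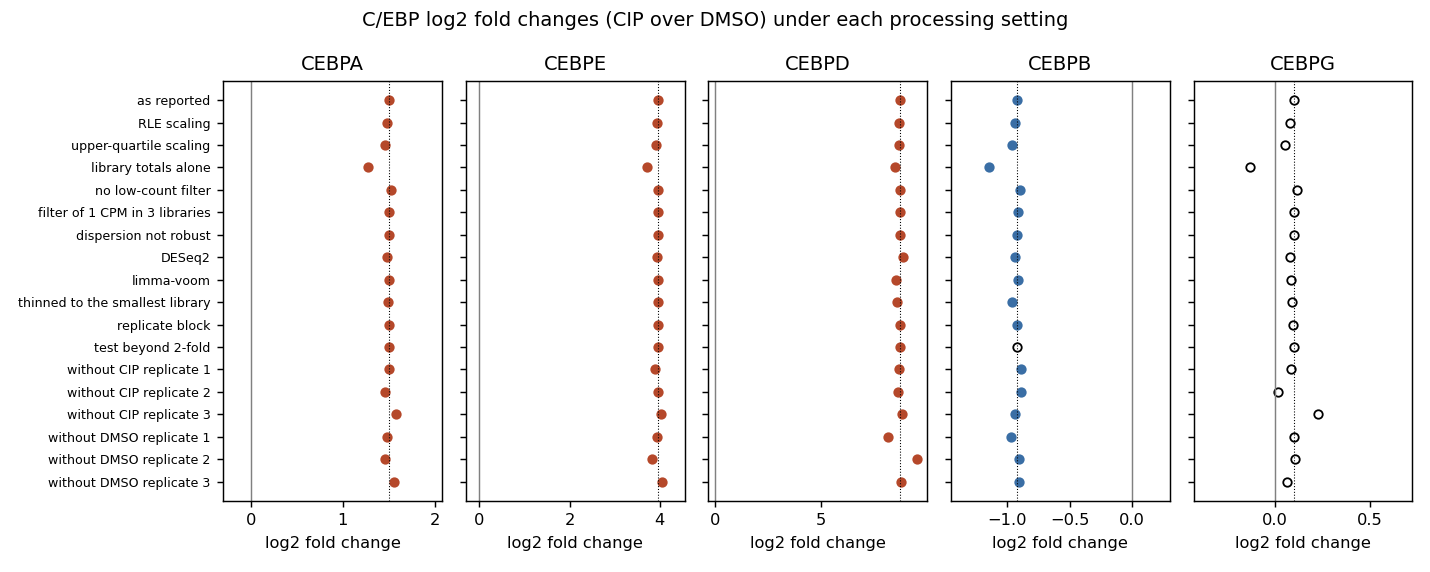
log2 fold change (CIP over DMSO) of each C/EBP gene as reported and under 17 other settings, filled where the adjusted p was under 0.05 and open where it was not, with a dotted line at the reported value. CEBPA, CEBPE and CEBPD stay to the right of 0 and CEBPB to the left in each setting. CEBPG lies between -0.13 and 0.23.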

How the data were processed

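The authors deposited raw counts, whole numbers listed by gene symbol for each library. Tools named in the submitters' processing notes are fastp, STAR, HTSeq and bcl2fastq (2.20.0.422), with build GRCh38. The sources used here give no annotation release, strand setting or use of molecular identifiers, so reads of overlapping genes cannot be separated. The exact intervals cover counting error only, while the edgeR interval of CEBPG also takes in the spread among libraries. Per the labels' protocols, the kit was Lexogen QuantSeq. Group and replicate come from the sample titles.

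Counts were tested with edgeR 4.0.16 in R 4.3.3 (filterByExpr, TMM, robust quasi-likelihood test, group alone, 2-sided, Benjamini-Hochberg over 12844 genes). CPM values use TMM-scaled totals, where 3 counts equal 0.287 to 0.346 CPM. Alternatives used RLE, upper-quartile and total scaling, other filters, non-robust dispersion, DESeq2 1.42.0, limma-voom (limma 3.58.1), thinning, the replicate block and leaving out each library. Steps were tested on simulated data in which few genes changed. That test cannot show how the scaling or the calls hold when most genes change. Pairs of libraries in a group differed beyond sampling noise (chi-square per gene 3.90 to 8.14).

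Members, gene lists and tests were chosen with earlier results of these data known. Named genes are the members, DDIT3, CEBPZ, CEBPA-DT and CEBPB-AS1, up to 6 called genes a list (mean of 5 CPM or more in the higher group) ranked by size of change, the adjacent tested genes, the 3 most alike genes per member and the line markers, of which some are not reported here. COP1, ATF4, RUNX1, CSF3R, ASNS, LTF, CAMP, ITGAM, CCL3, PTX3 and the other genes named for counts of 0 were chosen after their values were seen. So were the promoter motifs and the test beyond 2-fold. ATF5, DDIT3, CSF3R and GFI1 stand in more than 1 list.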

Additional observations from a re-analysis of the deposited data

How the results depend on the processing

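Over 17 other settings, the log2 fold change of CEBPA ranged from 1.27 to 1.57, that of CEBPE from 3.72 to 4.05, that of CEBPD from 8.12 to 9.48 and that of CEBPB from -1.15 to -0.89, and CEBPA, CEBPD and CEBPE were called in each. CEBPB lost its call only in the test of change beyond 2-fold (adjusted p = 1.00, log2 fold change -0.92), where the number of members lower was 0, a test that by its construction asks for a larger change. The low end for CEBPA, CEBPE and CEBPB came with library totals alone, which moved the median of all genes from -0.03 to -0.26 and the share of called genes that were higher from 47.7% to 36.8%. CEBPG did not pass in any setting (adjusted p = 0.080 to 1.00), and its sign turned with library totals alone (-0.13). Among the genes most alike to it and CEBPZ, the sign also turned with library totals alone for ACAT1 (-0.11), CEBPZ (-0.085), MRPS14 (-0.11) and RACGAP1 (-0.12), while RACGAP1 ranged from -0.030 without CIP replicate 2 to 0.25 without CIP replicate 3. Leaving out 1 library at a time gave 1.45 to 1.57 for CEBPA, 3.83 to 4.05 for CEBPE, 8.12 to 9.48 for CEBPD, -0.97 to -0.89 for CEBPB and 0.02 to 0.23 for CEBPG. The ratios to CEBPA kept their direction in all 32 recomputations. Labelled replicate numbers did not pair the libraries (correlations of deviations -0.0271 to -0.00992 for equal numbers). The replicate block changed no member's call, with log2 fold changes of 3.95 for CEBPE, -0.92 for CEBPB and 0.09 for CEBPG, and called 9061 genes in place of 9394. PTGS2 and NRAS lost their calls under it. Depth limits CEBPD in DMSO libraries and the granule genes listed at 0. NRAS passed as higher (adjusted p = 0.035) and did not pass in 11 of the other settings, with library totals alone at 0.91.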
